A study of Mus musculus with 16 samples.

Results

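Transcripts of 10 macrophage marker genes were followed in mouse liver across genotype and diet. The genes were listed by name, with earlier results of these data known, and no threshold on their values was used: 7 mark lipid-associated macrophages (Gpnmb, Mmp12, Trem2, Cd9, Itgax, Cd68 and Lgals3) and 3 mark Kupffer cells, the resident macrophages of the liver (Clec4f, Timd4 and Vsig4). All 10 were among the 15119 genes of the deposited count table, and all 10 passed the filter on low counts that left 14434 genes for testing. The 16 libraries were poly(A) RNA-seq of whole liver from female mice that were kept on chow to 9 months of age and then either had 12 more weeks of chow or 12 weeks on TD. 88137, a high-fat diet (HFD). Within each diet the mice were wild type (WT) or carried a knockout of Arglu1, a transcriptional coregulator and splicing factor, in hepatocytes (LKO). The 4 groups, WT chow, LKO chow, WT HFD and LKO HFD, held 4 libraries each. The labels give neither the driver of the knockout nor the part of the gene removed, and they do not say whether each library is a separate animal, so p-values measure the spread between these libraries.

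Kupffer cells line the liver sinusoids, where they clear particles, lipoproteins and dying cells from portal blood, and in the mouse they are recognised by the C-type lectin CLEC4F, the phosphatidylserine receptor TIM-4 (Timd4) and the complement receptor VSIG4. In fatty liver and in obese adipose tissue a further macrophage state has been described that takes up lipid and carries the lipid receptor TREM2, the tetraspanin CD9 and the lysosomal glycoprotein GPNMB. TREM2 signals through the adaptor TYROBP and the kinase SYK, and its loss in obese mice blunts the formation of these cells in fat. TIM-4 is known as a mark of Kupffer cells of embryonic origin, and macrophages that enter the liver later acquire it slowly.

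The promoters of the members differ in the motifs they hold. RefSeq windows (GRCm38.p6, 300 bases from upstream of the transcript's start to just past it) were matched for all 10 genes, with a pair of windows for Mmp12. The windows of both diet-responsive genes described first below and of a pair of Kupffer cell markers are shown, 5′ to 3′ on the gene's strand. Capitals mark AP-1 sites (TGACTCA or its reverse complement) and PU.1 core motifs (GAGGAA or its reverse complement). AP-1 is a family of stress- and growth-responsive factors, and PU.1 is the lineage factor of macrophages.
Gpnmb, chr6:49036268-49036567, plus strand: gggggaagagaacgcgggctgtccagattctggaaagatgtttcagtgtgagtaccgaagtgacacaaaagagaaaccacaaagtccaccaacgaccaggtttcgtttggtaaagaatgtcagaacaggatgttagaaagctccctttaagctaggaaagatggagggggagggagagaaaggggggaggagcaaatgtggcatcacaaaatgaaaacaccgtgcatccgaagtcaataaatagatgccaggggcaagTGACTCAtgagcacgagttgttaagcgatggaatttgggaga
Mmp12, window 2, chr9:7347124-7347423, plus strand: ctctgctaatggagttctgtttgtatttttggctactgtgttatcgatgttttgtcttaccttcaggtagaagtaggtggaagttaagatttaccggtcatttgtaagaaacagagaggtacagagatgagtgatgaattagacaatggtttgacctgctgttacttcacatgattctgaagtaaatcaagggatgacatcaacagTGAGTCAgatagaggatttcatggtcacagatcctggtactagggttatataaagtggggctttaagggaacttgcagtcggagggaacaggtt
Clec4f, chr6:83656067-83656366, minus strand: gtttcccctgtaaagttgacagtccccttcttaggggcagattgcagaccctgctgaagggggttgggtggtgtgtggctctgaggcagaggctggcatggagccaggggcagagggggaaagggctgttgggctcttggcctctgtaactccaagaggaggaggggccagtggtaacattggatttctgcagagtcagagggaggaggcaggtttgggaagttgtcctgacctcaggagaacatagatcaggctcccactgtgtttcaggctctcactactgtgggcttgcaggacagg
Vsig4, chrX:96293389-96293688, minus strand: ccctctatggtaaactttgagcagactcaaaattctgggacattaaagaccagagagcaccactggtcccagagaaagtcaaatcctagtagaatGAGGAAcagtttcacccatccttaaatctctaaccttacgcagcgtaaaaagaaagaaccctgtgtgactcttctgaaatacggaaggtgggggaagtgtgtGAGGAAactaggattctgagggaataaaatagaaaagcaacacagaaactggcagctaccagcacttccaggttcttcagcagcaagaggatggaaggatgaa
The AP-1 site begins at base 259 of the Gpnmb window and at base 207 of this Mmp12 window, where it is read on the opposite strand. The Vsig4 window held PU.1 cores at bases 96 and 198, and the Clec4f window held neither motif. Of the windows not shown, Mmp12 window 1 held a PU.1 core at base 165 and no AP-1 site. The window of Lgals3, which also rose on HFD in WT, held neither motif. Over all members, AP-1 sites were present in 4 genes (Gpnmb, Mmp12, Itgax and Cd68), all of them lipid-associated markers, and in 5.2% of the 32851 windows of the table. PU.1 cores were present in 4 (Mmp12, Trem2, Cd68 and Vsig4) and in 28.3% of all windows. The M-box TCATGTG, bound by MITF-family factors, and the TATA box TATAAA were present in 1 member each, Mmp12 in both cases, and in 3.77% and 13.6% of windows. The E-box CACGTG was found in no member and in 7.15% of windows. A member counts if any of its windows holds the motif, while the percentages count single windows. Both strands were searched, and these matches describe letters and not bound sites.

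Total counts per library ran from 19142612 to 25120565. Arglu1 was at 39.5 to 45.1 CPM (counts scaled to library size with TMM factors) in WT and at 12.8 to 16.7 CPM in LKO libraries, so the labels fit the targeted gene. Genotype divided the libraries along principal component 1, with 38.2% of the variance. Component 2 (13.8%) set LKO chow libraries 3 and 4 apart from LKO chow libraries 1 and 2, with scores of 38.1 and 34.7 against -10.7 and -11.1. WT chow libraries 1 to 4 were at 18.6, -5.63, 9.58 and 28.3, WT HFD libraries at -25.1 to 6.87 and LKO HFD libraries at -20.1 to -8.1. These scores do not show which pair of LKO chow libraries is the unusual one. Calls that rest on LKO chow are given with and without libraries 3 and 4, and those of the members also without libraries 1 and 2. Hepatocyte Alb was at 46310 to 105400 CPM in the 16 libraries. In whole tissue, fewer cells of a type and less RNA per cell cannot be told apart.

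On HFD, 3 lipid-associated markers rose in WT liver, Gpnmb and Mmp12 by more than 5-fold and Lgals3 by less than 2-fold. Gpnmb, a lysosomal transmembrane glycoprotein of phagocytes (chr6:49036546-49070929, plus strand, GRCm38), was at 0.563, 0.838, 1.02 and 0.628 CPM in WT chow libraries 1 to 4 and at 1.97, 4.72, 6.01 and 3.57 CPM in WT HFD libraries 1 to 4. Every HFD library lay above every chow library. The fitted change was 5.32-fold (log2 2.41, SE 0.33, 95% interval 1.71 to 3.11; edgeR quasi-likelihood test, Benjamini-Hochberg adjusted p = 0.000609). Its level was low, with 11 to 149 estimated counts per library over all 16.

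Mmp12, macrophage metalloelastase (chr9:7344381-7369499, plus strand), was at 1.59, 1.34, 2.21 and 1.16 CPM on chow and at 5.72, 7.08, 16.4 and 6.78 CPM on HFD in WT. The groups did not overlap, and WT HFD library 3 stood above the other HFD libraries. The change was 5.75-fold (log2 2.52, SE 0.39; edgeR adjusted p = 0.00221), and without that library it was 2.06 on the log2 scale and still called. The Mmp12 locus overlaps Mmp1b on the other strand, which was listed at 0 in all libraries.

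Lgals3, the carbohydrate-binding protein galectin-3 (chr14:47367751-47386160, plus strand), was at 5.73, 7.13, 4.20 and 5.07 CPM on chow and at 9.51, 11.9, 11.5 and 10.2 CPM on HFD in WT. Its groups were again apart, and the HFD libraries differed little among themselves. The change was 1.94-fold (log2 0.96, SE 0.19; edgeR adjusted p = 0.0143), with an adjusted p of 0.0503 when WT chow library 4 was left out.

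The other 4 lipid-associated markers did not pass the test in WT. Trem2, the lipid-sensing receptor itself (chr17:48346401-48354147, plus strand), was at 2.76, 2.56, 2.64 and 3.86 CPM on chow and at 4.61, 6.44, 4.12 and 4.47 CPM on HFD. No HFD library overlapped the chow group, although WT chow library 4 came close. The log2 change was 0.73 (SE 0.23, 95% interval 0.25 to 1.21; edgeR adjusted p = 0.113, DESeq2 adjusted p = 0.0481). Itgax, the integrin subunit CD11c of dendritic cells and lipid-laden macrophages (chr7:128129547-128150657, plus strand), was at 3.02, 3.31, 1.94 and 1.55 CPM on chow and at 3.36, 3.34, 6.58 and 3.97 CPM on HFD. These groups were apart by a narrow margin only, and the change of 0.81 on the log2 scale had an edgeR adjusted p of 0.217. Cd68, the endosomal macrosialin of macrophages (chr11:69664213-69666153, minus strand), averaged 9.70 ± 3.503 CPM on chow and 13.8 ± 1.58 CPM on HFD (SD, n = 4 each) with overlapping groups (log2 0.50; edgeR adjusted p = 0.565). Cd9, a tetraspanin of the cell surface (chr6:125460266-125494791, minus strand), was at 27.7 ± 2.65 CPM on chow and 24.9 ± 7.36 CPM on HFD (log2 -0.15; edgeR adjusted p = 0.758).

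Of the 7 lipid-associated markers, 3 thus rose and 0 fell in WT, where 2.04% of all genes tested were called, 0.97% higher and 1.07% lower. An unadjusted p below 0.05 was reached by 5, and the same 5 had no overlap between the groups with HFD higher, as 4.45% of all genes did. The median log2 change of the 7 was 0.81, beside 0.01 over all genes. Macrophage genes common to all such cells lay above chow as well: of 15 such genes 14 had a log2 change above 0, with a median of 0.51, and 0 of 15 passed the test (edgeR), although Mpeg1 and Fcgr1 did without LKO chow libraries 3 and 4 (adjusted p = 0.00809 and 0.0173). Their summed level was 370 to 722 CPM in WT chow and 602 to 745 CPM in WT HFD libraries. Of 7 hepatocyte genes 0 rose and 2 fell on HFD in WT, Alb (log2 -0.74, edgeR adjusted p = 0.00179) and Hnf4a. The summed level of the 7 was 85800 to 115000 CPM on chow and 60900 to 66200 CPM on HFD. Alb made up most of this sum, with WT means of 82880 CPM on chow and 49710 CPM on HFD. Of the 7, 1 had a log2 change above 0, Cps1 at 0.005. How far macrophage content or the hepatocyte share of the RNA enters the changes of the members was not tested.

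**Figure D1:**
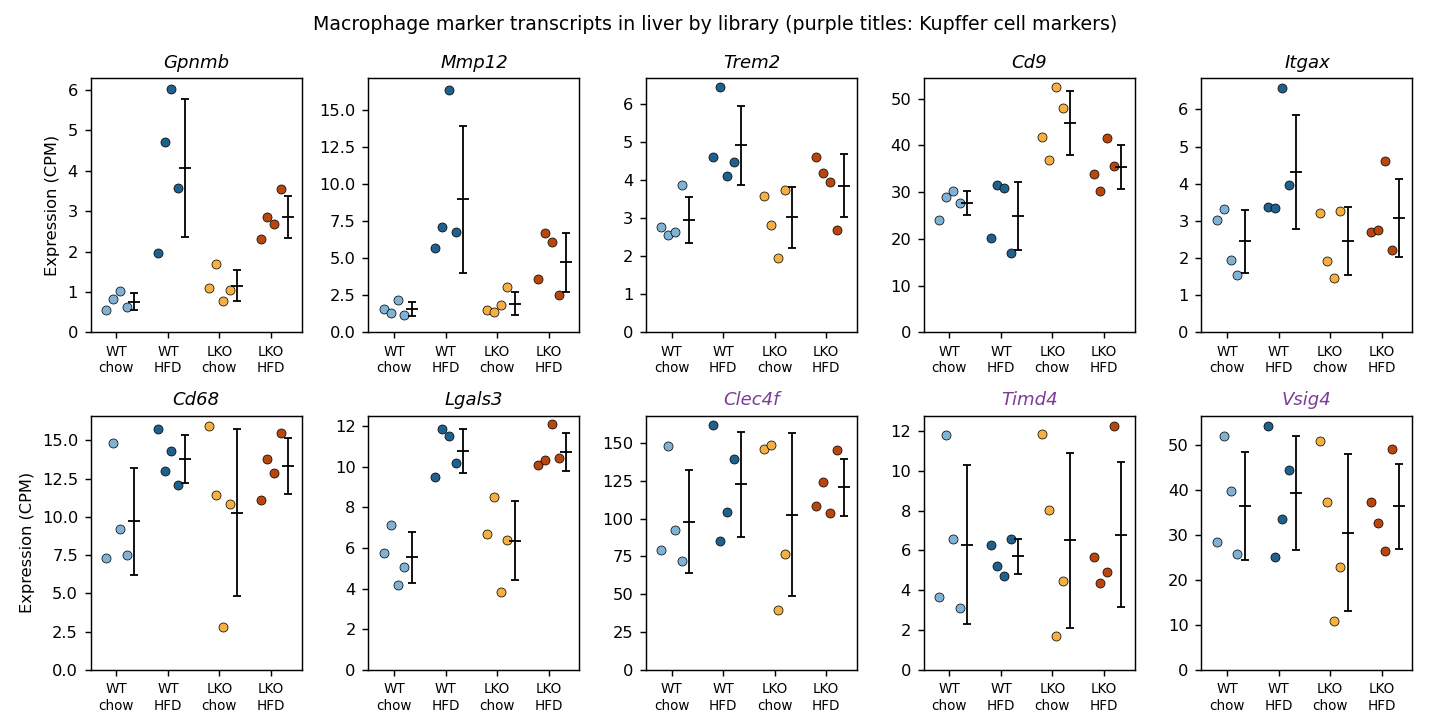
Expression of the 10 markers in CPM (linear axes from 0) by group, with 1 point per library and the mean ± SD (n = 4) beside the points. Gpnmb, Mmp12 and Lgals3 sit higher in WT HFD than in WT chow without overlap, Cd9 sits higher in LKO than in WT on chow, and the Kupffer cell markers (purple titles) spread widely within the chow groups.

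In LKO liver the same diet comparison called fewer lipid-associated markers, and the fitted rises of Gpnmb, Mmp12 and Lgals3 were smaller. Gpnmb was at 1.10, 1.70, 0.774 and 1.05 CPM in LKO chow libraries 1 to 4 and at 2.30, 2.87, 2.68 and 3.55 CPM in LKO HFD libraries 1 to 4. The groups did not overlap. The rise was 2.44-fold (log2 1.29, SE 0.32, 95% interval 0.62 to 1.95; edgeR adjusted p = 0.0388). Lgals3 was at 6.70, 8.52, 3.83 and 6.41 CPM on chow and at 10.1, 10.4, 12.1 and 10.4 CPM on HFD, again apart, with a 1.68-fold rise (log2 0.75, SE 0.19; edgeR adjusted p = 0.0487). Both calls were near the threshold. Both were kept without LKO chow libraries 1 and 2, in a run that called 2768 genes, against 320 with all libraries. Neither was kept without LKO chow libraries 3 and 4, with log2 changes of 1.02 for Gpnmb (adjusted p = 0.257) and 0.50 for Lgals3 (adjusted p = 0.25), and calls were also lost in runs that left out a single library: 8 of 16 for Gpnmb, with log2 changes of 1.14 to 1.54, and 13 of 16 for Lgals3, with 0.57 to 0.93.

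Mmp12 in LKO was at 1.54, 1.35, 1.82 and 3.05 CPM on chow and at 3.63, 6.69, 6.09 and 2.52 CPM on HFD. LKO chow library 4 lay above LKO HFD library 4, so the groups overlapped. The log2 change was 1.30 (SE 0.38, 95% interval 0.49 to 2.12) with an edgeR adjusted p of 0.0867 and a DESeq2 adjusted p of 0.0149, and without LKO chow libraries 3 and 4 it was 1.71 (edgeR adjusted p = 0.144). Trem2 was at 3.57, 2.81, 1.96 and 3.73 CPM on chow and at 4.601, 4.18, 3.95 and 2.68 CPM on HFD, with overlap (log2 0.35; edgeR adjusted p = 0.451), and its change without those libraries was 0.27. The remaining members had log2 changes of 0.33 for Itgax, 0.38 for Cd68 and -0.34 for Cd9, with edgeR adjusted p-values from 0.311 to 0.644. In this comparison 2 of 7 lipid-associated markers rose and 0 fell, where 2.22% of all genes were called, 1.14% higher and 1.07% lower. The 2 were also those without overlap, which 5.42% of all genes showed with HFD higher. The median log2 change of the 7 was 0.38, beside 0.00 over all genes (-0.000757 before rounding).

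The difference between the diet responses was tested directly as the interaction, and no member was called (edgeR, 0 of 7 and 0 of 3, where 0.0208% of all genes were called). Mmp12 had the lowest value, -1.22 on the log2 scale (95% interval -2.37 to -0.07, unadjusted p = 0.0393, adjusted p = 0.55). Gpnmb was at -1.12 (95% interval -2.09 to -0.16, unadjusted p = 0.0247, adjusted p = 0.511). Without LKO chow libraries 3 and 4 these values were -0.81 for Mmp12 (adjusted p = 0.804) and -1.39 for Gpnmb (adjusted p = 0.636). All 7 lipid-associated values were below 0, from -1.22 to -0.13, and 2 of the 7 had an unadjusted p below 0.05. A smaller response in LKO was therefore not established for any single gene, and intervals of this width do not show that the responses were equal.

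**Figure D2:**
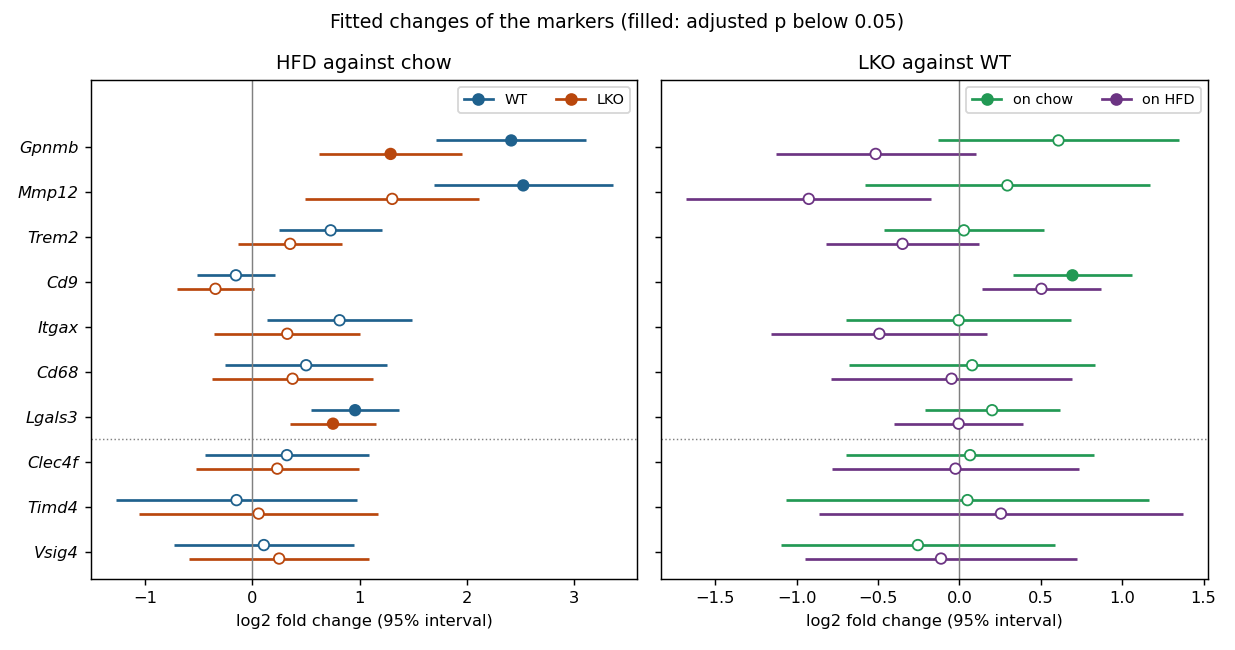
Fitted log2 fold changes with 95% intervals for HFD against chow in each genotype (left) and for LKO against WT on each diet (right), over 16 libraries, with filled symbols where the adjusted p was below 0.05. Gpnmb and Lgals3 are filled in both genotypes and Mmp12 in WT, Cd9 is filled for genotype on chow, and every Kupffer cell marker below the dotted line has an interval that spans 0.

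Between the genotypes edgeR called 1 of the 7 lipid-associated markers on chow, where 12.9% of all genes were called higher. This was Cd9. On chow it was at 23.99, 28.9, 30.1 and 27.7 CPM in WT libraries 1 to 4 and at 41.9, 36.8, 52.5 and 48.1 CPM in LKO libraries 1 to 4. Every LKO library lay above every WT library, and library 3, lowest among all 16 for most other members, was highest for Cd9. The rise was 1.62-fold (log2 0.69, SE 0.17, 95% interval 0.33 to 1.06; edgeR adjusted p = 0.00718). Without LKO chow libraries 3 and 4 it was 0.51 on the log2 scale and no longer called (adjusted p = 0.112). Without LKO chow libraries 1 and 2 instead, it was still called.

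On HFD Cd9 was at 20.3, 31.4, 30.9 and 17.0 CPM in WT and at 33.9, 30.2, 41.5 and 35.6 CPM in LKO. LKO HFD library 2 lay below WT HFD libraries 2 and 3, and the log2 difference of 0.50 (SE 0.17, 95% interval 0.14 to 0.87) had an edgeR adjusted p of 0.0527 and a DESeq2 adjusted p of 0.0362. Cd9 is made by many cells besides macrophages, among them bile duct cells and platelets. The summed level of 6 bile duct genes was 24 to 28.8 CPM in WT chow and 31.8 to 39.3 CPM in LKO chow libraries, and on HFD it was 19.2 to 27.1 against 23.3 to 26.8 CPM. Of the 6 platelet genes listed, 2 were tested. Itga2b, a platelet integrin, was higher in LKO on both diets (log2 1.59 and 1.31; edgeR adjusted p = 3.26e-05 and 0.000253, and 1.33 on chow without LKO chow libraries 3 and 4). Pf4, a platelet chemokine, was not called on either (log2 0.62 and -0.04; edgeR adjusted p = 0.339 and 0.967), at group means of 0.450 to 0.704 CPM. The part of these cells in the Cd9 difference was not tested. A pair of non-coding genes, Gm28809 and Gm26728, overlaps Cd9 on the other strand, and the strand setting of the counting is not given in the sources used here.

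No other lipid-associated marker was called between genotypes by edgeR. On chow 1 of 7 rose and 0 fell, where 24.7% of all genes were called, 12.9% higher and 11.8% lower. Cd9 was also the 1 member without overlap, with LKO higher, as in 11.4% of all genes. The remaining 6 had log2 differences from 0.00 for Itgax (-0.00467 before rounding) to 0.61 for Gpnmb (SE 0.35, edgeR adjusted p = 0.231). On HFD 0 of 7 were called by edgeR, where 17.9% of all genes were (10.3% higher and 7.57% lower), while 2 of 7 had an unadjusted p below 0.05 and DESeq2 called the same 2, Cd9 higher and Mmp12 lower. Mmp12 on HFD had a log2 difference of -0.93 (95% interval -1.68 to -0.17; edgeR adjusted p = 0.0844, DESeq2 adjusted p = 0.0485). When WT HFD library 3 was left out, this difference was -0.46. Gpnmb was at -0.51, Itgax at -0.49 and Trem2 at -0.35 on the log2 scale, all with edgeR adjusted p above the threshold and overlapping groups. The median of the 7 was 0.20 on chow and -0.35 on HFD, beside 0.02 and -0.01 over all genes.

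The Kupffer cell markers passed no test in any comparison. Clec4f (chr6:83644542-83656187, minus strand) was at 79.6, 148, 92.8 and 72.1 CPM in WT chow, 146, 149, 39.4 and 76.5 CPM in LKO chow, 162, 84.9, 105 and 139 CPM in WT HFD and 109, 125, 104 and 146 CPM in LKO HFD libraries 1 to 4. The 4 groups overlapped throughout, with the widest spread in LKO chow. The log2 change on HFD was 0.32 in WT (95% interval -0.44 to 1.08; edgeR adjusted p = 0.75) and 0.23 in LKO (95% interval -0.53 to 0.99; edgeR adjusted p = 0.78). A rise of about 2-fold lay at the upper edge of both intervals.

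Vsig4, which binds complement C3 fragments (chrX:96247203-96293438, minus strand), was at 28.4, 51.9, 39.7 and 25.6 CPM in WT chow, 50.9, 37.4, 10.9 and 22.8 CPM in LKO chow, 54.3, 24.98, 33.5 and 44.4 CPM in WT HFD and 37.2, 32.7, 26.4 and 49.0 CPM in LKO HFD. Timd4, the receptor for phosphatidylserine on dying cells (chr11:46810800-46844332, plus strand), was at 3.63, 11.8, 6.56 and 3.09 CPM in WT chow, 11.9, 8.02, 1.69 and 4.47 CPM in LKO chow, 6.29, 5.21, 4.72 and 6.59 CPM in WT HFD and 5.67, 4.38, 4.90 and 12.2 CPM in LKO HFD. Both genes had a high and a low pair of libraries within LKO chow, and Timd4 was high in LKO HFD library 4 as well. None of the 3 Kupffer cell markers was without overlap in any of the 4 comparisons of 2 groups, where 9.51% (HFD in WT), 10.2% (HFD in LKO), 21.4% (genotype on chow) and 27.8% (genotype on HFD) of all genes were. Over the 4 comparisons of 2 groups the 3 Kupffer cell markers had log2 differences from -0.26 to 0.32, with edgeR adjusted p-values from 0.694 to 0.976 and 0 of 3 at an unadjusted p below 0.05. DESeq2 called 0 of 3 as well. Their median log2 change on HFD was 0.11 in WT and 0.23 in LKO.

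The Kupffer cell markers varied between libraries in parallel, inside groups as well as across them. The SD of log2 CPM within groups was 0.56 for Clec4f, 0.62 for Vsig4 and 0.82 for Timd4, yet the SD of the log2 difference between Vsig4 and Clec4f was 0.17, and that between Timd4 and Clec4f was 0.41. Vsig4 ranged 4.93-fold over the 16 libraries as a level, while its CPM as a percentage of that of Clec4f ran from 25.1% to 42.8%, a range of 1.70-fold. Endothelial genes varied with them: the summed level of 10 had a within-group SD of 0.58 on the log2 scale, and its log2 difference from Clec4f one of 0.30. For sums of other lists this difference had an SD of 0.185 (15 general macrophage genes), 0.26 (12 other Kupffer cell genes) and 0.285 (8 general leukocyte genes). The sums of the remaining lists outside the members tracked Clec4f less closely, with SDs from 0.397 (11 monocyte genes) to 0.888 (7 B cell genes). The endothelial sum was 451 CPM in WT chow library 2 and 486 CPM in LKO chow library 1, both high in Clec4f. It was 199 CPM in LKO chow library 3 and 194 CPM in WT HFD library 2, each the lowest of its group in Clec4f. The match was not complete. In the chow groups the sum was lowest in WT library 1 (190 CPM) and LKO library 4 (180 CPM). Clec4f was at 79.6 and 76.5 CPM there, above the 72.1 CPM of WT chow library 4 and the 39.4 CPM of LKO chow library 3. The part of endothelial content in this variation was not tested. The percentages above compare libraries and not genes, since CPM is not scaled by transcript length.

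Cd68 tracked Clec4f more closely than the other lipid-associated markers did. Its log2 difference from Clec4f had a within-group SD of 0.31, and its percentage of Clec4f CPM ran from 7.17% to 15.3%, a 2.13-fold range. For the others this SD was 0.44 for Lgals3, 0.64 for Itgax, Gpnmb and Trem2, 0.75 for Cd9 and 0.91 for Mmp12. The percentage of Clec4f CPM ranged 10.1-fold for Gpnmb (0.57% to 5.75%) and 17.3-fold for Mmp12 (0.91% to 15.7%). The lowest values of both were in WT chow library 2 and the highest in WT HFD library 3. These are descriptions over 16 libraries that share group, depth and RNA composition.

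**Figure D3:**
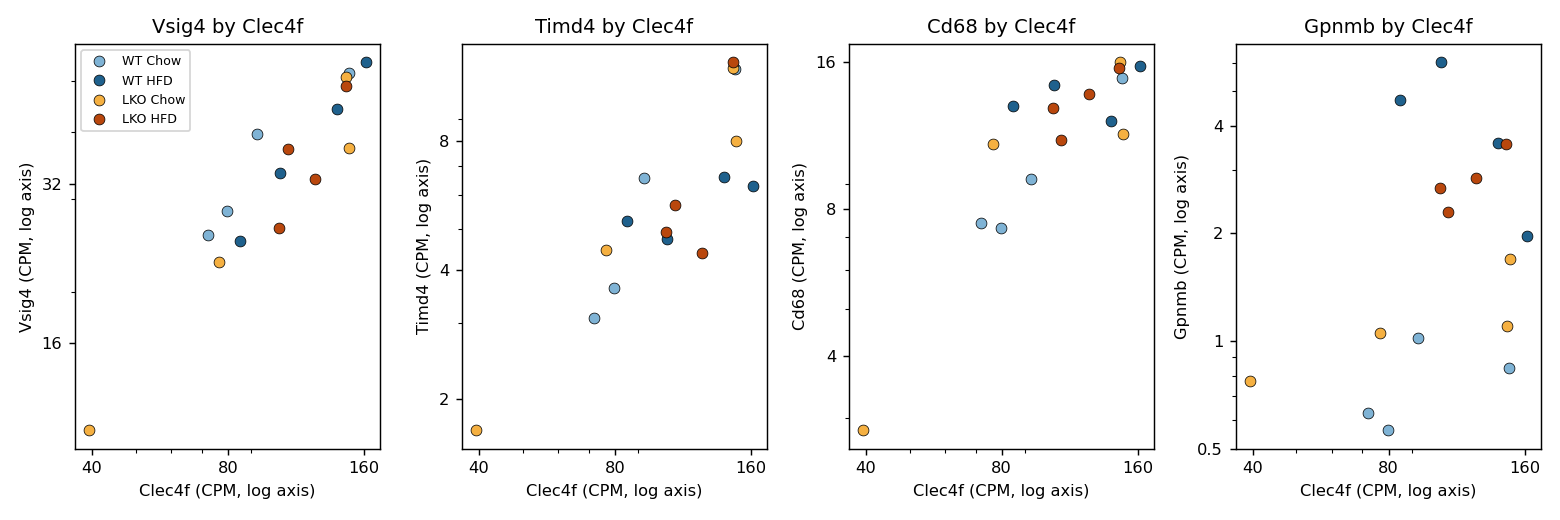
Vsig4, Timd4, Cd68 and Gpnmb against Clec4f, all in CPM on log axes, with 1 point per library coloured by group. Vsig4 rises with Clec4f from the LKO chow library at 39.4 CPM to the WT HFD library at 162 CPM, while Gpnmb separates the diets at similar Clec4f levels.

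LKO chow library 3 had the lowest value of all 16 libraries for 7 of the 10 members: Trem2, Itgax, Cd68, Lgals3, Clec4f, Timd4 and Vsig4. It also had the lowest summed level of the 15 general macrophage genes, 235 CPM against 370 to 918 CPM in the other 15. With LKO chow libraries 3 and 4 left out, the log2 change of Clec4f on HFD in LKO was -0.29, that of Vsig4 -0.28 and that of Timd4 -0.54, against 0.23, 0.25 and 0.06 with them. With LKO chow libraries 1 and 2 left out instead, the genotype difference on chow was -0.76 for Clec4f and -1.05 for Timd4. The sign of these small differences thus rests on which LKO chow libraries are used.

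As a summary of each set, log2 CPM was averaged over its members, with no test since the members were chosen with results known. The lipid-associated mean was 1.97 ± 0.16 in WT chow, 2.19 ± 0.37 in LKO chow, 3.03 ± 0.30 in WT HFD and 2.80 ± 0.17 in LKO HFD (SD, n = 4 each). The order of the groups thus put both HFD groups above both chow groups, and within a diet the genotypes differed by less than the larger of their SDs. The Kupffer cell mean was 4.72 ± 0.59, 4.54 ± 1.02, 4.89 ± 0.36 and 4.90 ± 0.40 in the same order, with differences between groups smaller than the SD. The lipid-associated minus Kupffer cell difference was -2.75 ± 0.44, -2.35 ± 0.77, -1.86 ± 0.63 and -2.11 ± 0.54, and it inherits the spread of the Kupffer cell markers.

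**Figure D4:**
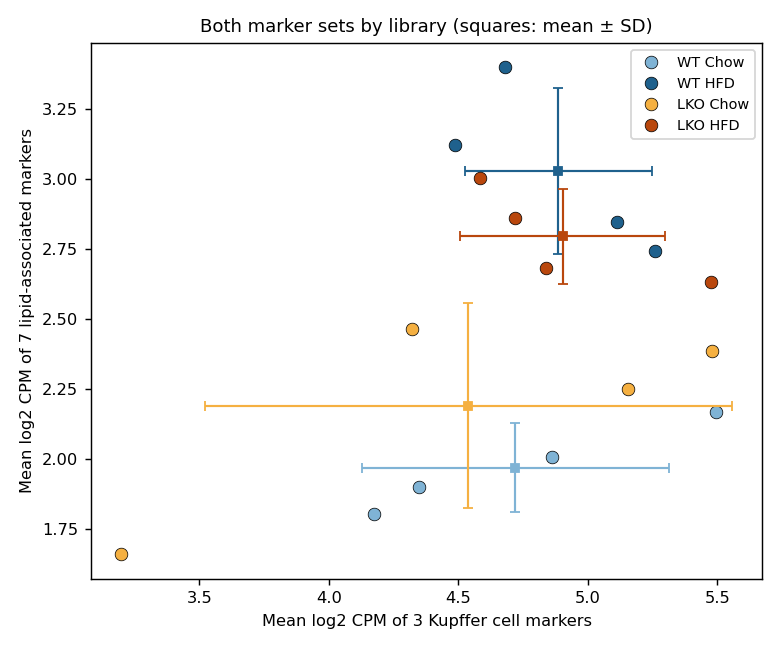
Mean log2 CPM of the 7 lipid-associated markers (vertical) against that of the 3 Kupffer cell markers (horizontal), with 1 point per library and squares at the group means ± SD (n = 4). The HFD groups average 3.03 and 2.80 on the vertical axis against 1.97 and 2.19 for the chow groups, while the horizontal means lie between 4.54 and 4.90.

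Further genes of the same cell states were counted from lists drawn up with earlier results of these data known. Over all genes, 0.97% rose and 1.07% fell on HFD in WT, and 1.14% rose and 1.07% fell on HFD in LKO. These shares stand beside the diet counts of every list that follows. Of 18 other lipid-associated genes, 5 rose and 0 fell on HFD in WT: Anxa2 (log2 1.40, edgeR adjusted p = 0.00546) and Anxa5 (0.71, 0.0301), which bind phospholipid, the actin capper Capg (0.94, 0.0285), the lysosomal tetraspanin Cd63 (1.19, 0.0181) and the urokinase receptor Plaur (1.73, 0.00761). The median of the 18 was 0.45. In LKO 0 of 18 passed the test on HFD, the lowest adjusted p among those 5 being 0.0572 for Anxa2, and their median was 0.20. The interaction values of the 5 had edgeR adjusted p-values from 0.402 to 0.749. By genotype 3 rose on chow (Anxa5, Atp6v0d2 and Cstb) and 3 on HFD (Anxa5, Cstb and Ctsd), and 0 fell, where 12.9% of all genes rose on chow and 10.3% on HFD. The 3 chow calls held without LKO chow libraries 3 and 4, at adjusted p from 0.00888 to 0.0435.

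Among 12 other Kupffer cell genes, 1 rose and 0 fell on HFD in WT, Il18bp, a secreted inhibitor of interleukin-18 (log2 0.51, edgeR adjusted p = 0.039), and 0 passed in LKO. By genotype C6, a complement component, and Il18bp rose in LKO on both diets, 2 of 12 where 12.9% and 10.3% of all genes rose. The C6 difference was 1.47 on chow and 1.22 on HFD on the log2 scale, and the chow call was lost without LKO chow libraries 3 and 4 (1.39, adjusted p = 0.0568). Medians on HFD were 0.25 in WT and 0.21 in LKO. Of 13 TREM2 signalling genes tested, 0 were called on HFD in WT, and in LKO 1 rose, Pik3r1 (log2 0.62, edgeR adjusted p = 0.00631), a regulatory subunit of phosphoinositide 3-kinase made in most cells, with an adjusted p of 0.0586 without LKO chow libraries 3 and 4. On chow Pik3r1 was lower in LKO than in WT (log2 -0.41, edgeR adjusted p = 0.01), where 11.8% of all genes were called lower. That call was lost without LKO chow libraries 3 and 4 (adjusted p = 0.108). Its means were 87.6 CPM in WT chow, 65.7 CPM in LKO chow, 102 CPM in WT HFD and 101 CPM in LKO HFD. Tyrobp, the adaptor of TREM2, had a log2 change of 0.60 in WT (edgeR adjusted p = 0.341) and 0.47 in LKO (adjusted p = 0.422).

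Of 20 lysosomal genes and MiT-TFE factors, which control lysosome formation, 1 rose on HFD in WT (Cd63) and 0 in LKO. Their medians on HFD were 0.07 and 0.14. Of the 15 general macrophage genes, Mpeg1, a pore-forming protein of phagocytes, rose on HFD in LKO (log2 1.12, edgeR adjusted p = 0.0359) and had a log2 change of 0.90 in WT (adjusted p = 0.0933). Without LKO chow libraries 3 and 4 its change in LKO was 0.67 and not called (adjusted p = 0.152), and that in WT was 0.90 and called (adjusted p = 0.00809).

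Markers of other cells that could carry the same transcripts were read beside these. Of 10 dendritic cell genes tested, whose cells share Itgax, 0 were called in any comparison of 2 groups, and the summed level of the 11 in the count table was 23.9 to 37.5 CPM in WT chow and 31.2 to 39.9 CPM in WT HFD. Of 11 monocyte genes, Plac8 rose on HFD in WT (log2 0.64, edgeR adjusted p = 0.0339) and was higher in LKO on both diets (0.97 and 0.57; adjusted p = 0.000131 and 0.00951). On chow Ly6c2 was higher (adjusted p = 0.0394) and Fn1 lower (adjusted p = 0.0129) in LKO, and both calls were lost without LKO chow libraries 3 and 4 (adjusted p = 0.224 and 0.196). Fn1 had group means of 1456 to 2105 CPM, beside 5.38 to 12.4 CPM for Plac8, and the cells it came from were not tested. Of 7 chemokine and growth factor genes that act on monocytes 0 were called on HFD, and Cxcl10 was higher in LKO on both diets, on chow not without LKO chow libraries 3 and 4 (adjusted p = 0.0942). Of 4 neutrophil genes 0 were called in these comparisons. Of 11 stellate cell and fibroblast genes, 3 collagens rose on HFD in WT, Col1a1, Col1a2 and Col3a1, where 0.97% of all genes rose. The last had a log2 change of 1.03 (edgeR adjusted p = 0.00429). In LKO 0 of 11 were called, and these collagens had log2 changes of 0.62, 0.52 and 0.47 (edgeR adjusted p = 0.193, 0.164 and 0.161). Their interaction values were not called either (edgeR adjusted p from 0.544 to 0.639). The 8 general leukocyte genes had 0 calls, a median log2 change on HFD of 0.42 in both genotypes, and summed levels of 64.3 to 130 CPM in WT chow and 113 to 130 CPM in WT HFD. The part of these cells in the members' changes was not tested.

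By likeness of profile, measured as the root-mean-square difference of centred log2 CPM over the 16 libraries, the genes closest to Gpnmb were Abcg5 (0.54), Anxa2 (0.55), Abcg8 (0.57), Mcm5 (0.58) and Acot11 (0.60), where Gpnmb itself had an SD of 1.02. Abcg5 and Abcg8 encode the sterol exporter of hepatocytes. For Trem2, with an SD of 0.42, the closest genes outside the members were H2-DMa and Ugp2 (0.26 each), Orc6 (0.27), Gadd45a (0.28) and Hsd3b2 (0.28). For Clec4f, with an SD of 0.54, they were Csf1r (0.16), Sdc3 (0.16), Rab8b (0.16), Cmklr1 (0.16) and Entpd1 (0.17). Csf1r encodes the growth factor receptor on which macrophages depend.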

How the data were processed

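Poly(A) RNA of 16 mouse liver libraries (NEBNext Ultra II, paired 150-base reads, 20 M reads stated) was compared in 4 groups. Values deposited by the authors are estimated (expected) counts by gene symbol, without normalisation; 51.1% were whole within 1e-06, and all were rounded here. Per the submitters' processing notes, mm10, Bowtie2 and DESeq2 were used, without versions or roles; the counting tool and its strand setting are not given in the sources used here. A second deposited table, named as RPKM, holds the same estimated counts with the 8 chow columns 1 row below their genes; once moved up, all 15119 genes were equal on chow in both (relative tolerance 1e-06 or 0.0001 absolute), and 1 HFD value, of a gene not reported, differed.

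Tests used edgeR 4.0.16 in R 4.3.3, files being read by data.table (1.17.8): TMM, filterByExpr by group, robust quasi-likelihood fits with 1 mean per group over all 16 libraries, 2-sided, adjusted by Benjamini-Hochberg over 14434 genes, called below 0.05. CPM are TMM-scaled, and log2 CPM used a prior count of 2. Intervals are at 95% and come from the fitted standard error. Alternatives were DESeq2 1.42.0, limma 3.58.1 voom, other scalings, no filter, the second table, only the groups compared, a replicate block and leaving out libraries. Leaving LKO chow libraries 3 and 4 out for the genes of the other lists was chosen after seeing the data. The fits were tested on simulated data. The members and lists were chosen with earlier results of these data known. Named genes are the members, the lowest p-values of each list and the 5 nearest profiles of Gpnmb, Trem2 and Clec4f among genes that are not members. Gene coordinates are from GENCODE M21 (GRCm38) and promoter sequences from RefSeq (GRCm38.p6). Total counts of 19142612 to 25120565 leave the lowest members, Gpnmb and Mmp12, at few counts on chow.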

Additional observations from a re-analysis of the deposited data

Results flagged for a closer look

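In 40 checks of a member within a group of 4 libraries, 3 held a library far from the others, where the gap to its neighbour divided by the group's range exceeded Dixon's 95% critical value for 4 samples. Chance flags about 1 in 20 such groups. Mmp12 in WT HFD library 3 was at 16.4 CPM against 5.72 to 7.08 CPM in the other 3 (gap over range 0.872). Trem2 in WT chow library 4 was at 3.86 CPM against 2.56 to 2.76 CPM (0.843). Timd4 in LKO HFD library 4 was at 12.2 CPM against 4.38 to 5.67 CPM (0.835).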

How the results depend on the processing

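Gpnmb and Mmp12 on HFD in WT were called in all 26 alternatives run, with adjusted p up to 0.00635 and 0.0131, and Lgals3 in 25. Leaving out 1 library gave 2 to 3 lipid-associated markers called on HFD in WT (3 with all), 0 to 2 on HFD in LKO (2 with all) and 0 to 1 for LKO against WT on HFD (0 with all). On HFD in LKO the count was 1 under limma voom, upper-quartile scaling, no filter, the second table and a fit of only the groups compared, and 0 without LKO chow libraries 3 and 4. Without these libraries the count for genotype on chow was 0 in place of 1. Without LKO chow libraries 1 and 2 both of these counts stayed as with all libraries. For genotype on HFD the count was 2 under DESeq2 (1 higher, 1 lower), and 1 under limma voom, the replicate block, and without LKO chow libraries 3 and 4 or 1 and 2. The counts of Kupffer cell markers stayed at 0 in every run. Replicate numbers do not pair the libraries (5 of 24 correlations above 0.1, median -0.0178), and the replicate block moved Cd9 on HFD to an adjusted p of 0.0325. The cause of these shifts was not tested.

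Of 1290 member values under an alternative, 1162 kept their sign and side of the threshold, 30 lost and 13 gained a call, and 85 changed sign, all 85 at changes that were not called. Without LKO chow libraries 3 and 4, log2 differences were -0.113 (Mmp12), 0.0568 (Itgax) and 0.276 (Vsig4) for genotype on chow, -0.0359 (Cd68), -0.289 (Clec4f), -0.544 (Timd4) and -0.281 (Vsig4) for HFD in LKO, and -0.395 (Timd4) and -0.389 (Vsig4) for the interaction. Without LKO chow libraries 1 and 2 they were -0.0653 (Trem2), -0.524 (Cd68), -0.126 (Lgals3), -0.764 (Clec4f) and -1.05 (Timd4) on chow, and 0.477 (Cd68), 0.122 (Lgals3) and 0.740 (Clec4f) for the interaction. Under limma voom they were -0.000853 (Trem2), -0.116 (Cd68), -0.0673 (Clec4f) and -0.0690 (Timd4) on chow, 0.0708 (Cd68) and 0.0735 (Clec4f) for the interaction, 0.00627 (Clec4f) for genotype on HFD and 0.0156 (Timd4) for HFD in WT. With the replicate block they were 0.0100 (Itgax), -0.0199 (Clec4f) and -0.0506 (Timd4) on chow and 0.00301 (Lgals3) for genotype on HFD, and under upper-quartile scaling 0.0373 (Itgax) on chow.

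Leaving out 1 library gave ranges that cross 0. For genotype on chow these were -0.0861 to 0.186 (Trem2), -0.174 to 0.182 (Itgax), -0.217 to 0.390 (Cd68), -0.168 to 0.335 (Clec4f), -0.407 to 0.562 (Timd4) and -0.618 to 0.0242 (Vsig4). For genotype on HFD they were -0.129 to 0.0284 (Cd68), -0.0677 to 0.0426 (Lgals3), -0.166 to 0.138 (Clec4f), -0.197 to 0.419 (Timd4) and -0.292 to 0.0822 (Vsig4). For HFD in WT they were -0.373 to 0.359 (Timd4) and -0.0874 to 0.321 (Vsig4), and in LKO -0.0373 to 0.466 (Clec4f), -0.392 to 0.515 (Timd4) and -0.0294 to 0.613 (Vsig4). For the interaction they were -0.437 to 0.169 (Cd68), -0.359 to 0.144 (Clec4f), -0.309 to 0.662 (Timd4) and -0.137 to 0.505 (Vsig4).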
